A study of Mus musculus with 4 samples.

Results

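Migrating newborn excitatory neurons were taken from the single-nucleus libraries of the E16.5 mouse medial cortex as nuclei that carried transcripts of Neurod1 and Unc5d and few or none of the genes of neighbouring cell states. A nucleus was kept with 1500 to 60000 transcripts. It was counted as a member with at least 1 Neurod1 and at least 5 Unc5d transcripts, no Eomes, Gad1 or Gad2, at most 1 transcript of Mki67 and Top2a together, at most 2 of Slc1a3, at most 1 of Inhba and at most 2 of Hs3st4. These clauses selected 1392 of 29656 retained nuclei, and the other 28264 were the comparison. The members were thus selected on their measured counts of these genes, and the levels of genes in members against other nuclei are therefore given as a description, without a test.

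The libraries came from 2 embryonic genotypes. Sst-Cre/tdTomato embryos were the control, and Sst-Cre/tdTomato/Dnmt1 loxP2 embryos (Dnmt1 KO) carried in addition the floxed alleles of the DNA methyltransferase Dnmt1, with 2 libraries of each genotype. Cre and the tdTomato reporter were present in both genotypes. Since Sst drives Cre, the deletion is directed at somatostatin-expressing interneurons, and the excitatory nuclei described here belong to another lineage. Control 2 was the only library of batch 2. The libraries had no cell barcode name in common.

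During cortical development, intermediate progenitors of the subventricular zone express Eomes (TBR2) and give rise to glutamatergic neurons that pass through a short Neurod1-positive state. The newborn neurons become multipolar, linger in the intermediate zone and then migrate along radial glia towards the cortical plate. Unc5d, a netrin and FLRT receptor, marks this multipolar stage, and Nrp1 encodes a receptor of class 3 semaphorins such as Sema3c.

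The members numbered 328 in Dnmt1 KO 1, 509 in Dnmt1 KO 2, 322 in control 1 and 233 in control 2. They held a median of 11823, 10352, 11830 and 17011 transcripts, against 12321.5, 12532, 12464 and 21364.5 in the other nuclei. Over whole libraries, the totals ran from 96455278 to 201141704 transcripts. Simulated doublets called 3, 7, 5 and 4 members, respectively.

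Both markers outside the rule, Nrp1 (chromosome 8, 129085085 to 129231082, plus strand, GRCm39) and Sema3c (chromosome 5, 17779219 to 17935648, plus strand), were high in the members, as the label has it. Nrp1 stood at 1473 and 1691 CPM (counts scaled to the summed transcripts of the members in a library) in Dnmt1 KO 1 and 2 and at 1740 and 2192 in control 1 and 2, against 697, 817, 599 and 823 in all other nuclei. Sema3c stood at 449, 543, 525 and 540 CPM, against 115, 140, 113 and 116. For both genes, the lowest level in the members of a library was above the highest level in all other nuclei of a library. Nrp1 was found in 92.1% to 97.0% of the members and Sema3c in 75% to 85.0%. In inhibitory nuclei with at least 5 Gad1 and Gad2 transcripts, at median depths of 10097 to 17666 transcripts, these shares were 35.2% to 51.1% and 6.27% to 13.9%. Neurod1 itself was present in 5.67% to 7.48% of the inhibitory nuclei and in 11.7% to 14% of all nuclei outside the members, so a lone Neurod1 transcript was not particular to the members. Unc5d was present in 51.2% to 69.0% of the inhibitory nuclei and in 60.6% to 74.8% of all nuclei outside the members. The Unc5d clause taken alone was met by 2254, 4723, 2779 and 2281 of the 5640, 12064, 7047 and 4905 retained nuclei.

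Slc17a6, the vesicular glutamate transporter VGLUT2, stood at 380 and 222 CPM in the members of Dnmt1 KO 1 and 2 and at 338 and 265 CPM in those of control 1 and 2. The other nuclei had 115, 69.1, 88.4 and 91.0 CPM. Slc17a6 was not particular to the members, since its level was higher in the Eomes-positive nuclei described below. Of the 24 listed genes of the glutamatergic synapse, to which it belongs, 16 were lower in the members in all 4 libraries. Markers of non-neuronal lineages were low. The oligodendrocyte precursor list of 5 genes summed to 0.429 to 0.793 CPM, the mural list of 5 to 1.71 to 4.12 CPM, and the microglial list of 7 to 10.4 to 25.7 CPM. In the other nuclei these sums were 4.01 to 16.3, 23.3 to 44.0 and 18.4 to 30.6 CPM, so the microglial sum was little lower in the members. Endothelial genes summed to 1.5 to 43.8 CPM over 5 genes, the highest in Dnmt1 KO 2, against 48.9 to 105 CPM. Meningeal genes summed to 0 to 5.39 CPM and choroid plexus genes to 0 to 17.1 CPM, both highest in Dnmt1 KO 2. The other nuclei had 2.44 to 41.0 and 2.14 to 71.0 CPM of these. The 12 interneuron markers summed to 65.2 to 205 CPM, against 1842 to 4194 CPM in the other nuclei. Olig2, C1qc and Kcnj8 had no transcript in any member.

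The members of Dnmt1 KO 1 made up 5.82% of its retained nuclei (95% exact interval 5.22 to 6.46), those of Dnmt1 KO 2 4.22% (3.87 to 4.59), those of control 1 4.57% (4.09 to 5.08) and those of control 2 4.75% (4.17 to 5.38). The Dnmt1 KO libraries therefore lay on either side of both controls. The means were 5.02% ± 1.13 (SD, n = 2) and 4.66% ± 0.128 (n = 2), a difference of 0.36 percentage points with p = 1 in a two-sided exact permutation test, in which 2 against 2 libraries cannot give less than 0.33. Within batch 1, the mean of both Dnmt1 KO libraries was 0.448 points above control 1. The intervals cover counting error only. The difference ran from -0.44 to 1.16 points when a library was left out, and it was negative without Dnmt1 KO 1. With every nucleus thinned to 5000 transcripts the shares were 4.2%, 3.08%, 3.70% and 3.21%, with 455, 565, 609 and 268 shallower nuclei left out. At 10000 transcripts they were 5.12%, 3.10%, 4.41% and 4.77%, which turned the difference to -0.48 points. That depth left out 1850, 4074, 2420 and 500 shallower nuclei, a loss that was unequal between the libraries. A nucleus that lost its few Eomes or Slc1a3 transcripts could enter by thinning, and 154, 251, 175 and 89 of the 218, 354, 238 and 149 thinned members were members at full depth.

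**Figure D1:**
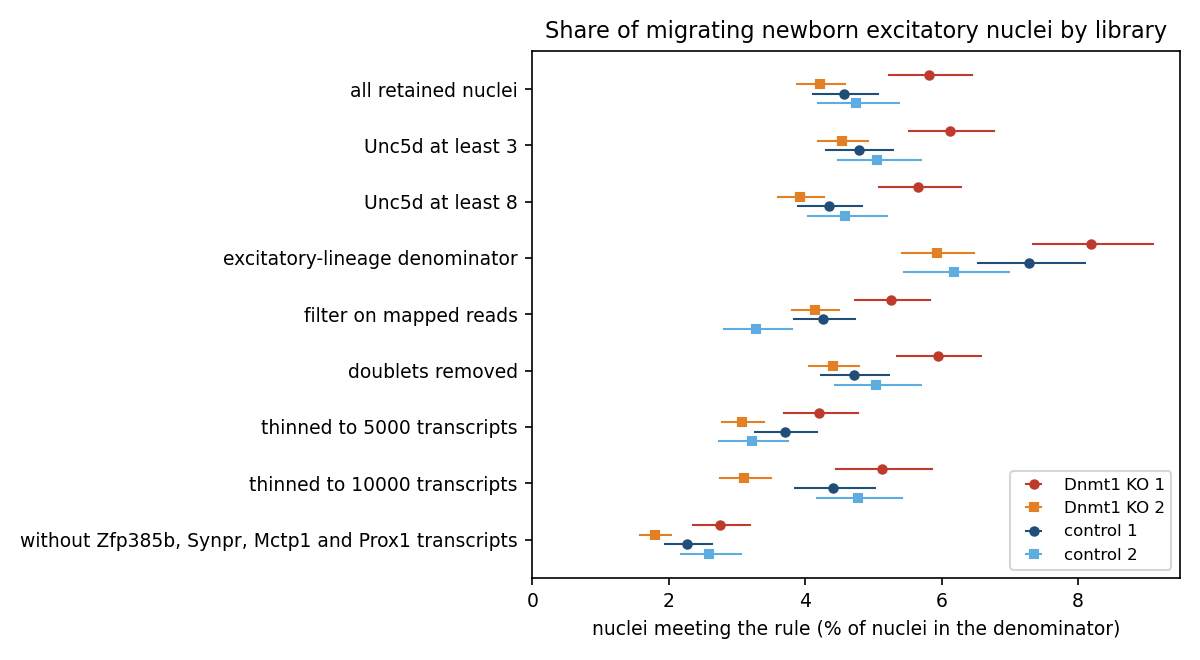
Share of nuclei meeting the rule in each library, on the horizontal axis in percent of the nuclei in the denominator, for the rule as stated (top row) and for each alternative; points are libraries and lines are 95% exact binomial intervals. Dnmt1 KO 1 is the highest library with the rule as stated, at 5.82%, and Dnmt1 KO 2 the lowest, at 4.22%.

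Each clause removed a different neighbour. Dropping the Neurod1 clause alone would have added the most nuclei, 749, 1445, 836 and 618 in Dnmt1 KO 1 and 2 and control 1 and 2. The Eomes clause alone removed 214, 200, 151 and 128 nuclei, the Unc5d clause 106, 281, 73 and 69, the Slc1a3 clause 24, 92, 52 and 44, the Hs3st4 clause 23, 54, 20 and 37, the cell cycle clause 21, 20, 30 and 12, and the Gad clause 10, 74, 41 and 19. The Inhba clause alone removed 0, 11, 6 and 12, and these were not compared further. At the edges of the rule, 180, 321, 191 and 135 members had exactly 1 Neurod1 transcript, and 2, 14, 7 and 4 had exactly 5 Unc5d transcripts. Most members were far inside the Unc5d threshold, with medians of 109, 67, 116 and 168 Unc5d transcripts per nucleus. Nuclei with 4 Unc5d transcripts that met every other clause numbered 8, 21, 7 and 6.

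With the genes of the rule left out, genes ordered by their least favourable library were led by Sema3c. Of 7993 genes seen in at least 10% of nuclei of either side, here with the genes of the rule included, 31 were at least 2-fold higher in members than in other nuclei in all 4 libraries (0.388%). At least 2-fold lower were 305 (3.82%). Ratios were formed from CPM plus 5, which understates the ratio of low genes. The highest included, after Sema3c and the long noncoding RNAs Gm32647 and 2600014E21Rik, Slc17a6, the heparan sulfate sulfotransferase Ndst3, the adaptor Shb, the Rac activator Prex1, the potassium channel Kcnn3, the phospholipase Plcb1, the transcriptional repressors Prdm8 and Scrt2, and Sstr2, a receptor of somatostatin. Sstr2 had 34.1, 27.6, 59.2 and 45.7 CPM in the members of Dnmt1 KO 1 and 2 and control 1 and 2, against 12.8, 8.29, 14.1 and 12.4 CPM. Cerkl, also among the highest, overlaps Neurod1 on the same strand (chromosome 2, 79159520 to 79287129, against 79282865 to 79287294, GRCm39), so that reads of the selected gene cannot be told apart from its own. The 15 genes lowest against the other nuclei were led by Nxph1 and Erbb4, which mark interneurons, then by the phospholipase Plce1 and the neurexin Nrxn3, and also held the radial glial gene Tnc and the mitotic kinesin Kif4. Nxph1 had 9.14, 11.3, 17.0 and 7.29 CPM in the members, against 432, 706, 714 and 505 CPM.

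The genes that were high together in members included several with an E-box of the letters CAGATG (or its reverse complement CATCTG) in the promoter, a motif that Neurod1 and related basic helix-loop-helix factors bind. In RefSeq windows from 250 bases before to 50 after the start, the motif was found for 7 of the 21 genes with a listed promoter among the 25 highest (33.3%) and for 2 of 12 among the 15 lowest (16.7%). It was found for 28 of 106 genes that were at least 1.5-fold higher in all libraries (26.4%), for 816 of 6284 detected genes (13%) and for 5196 of all 27025 listed genes (19.2%). The match of letters is a description and does not show binding. The promoters of a pair of them are printed for the class 3 semaphorin and the glutamate transporter named above, each 5′ to 3′ on the plus strand of GRCm38.p6 (a build other than that of the counts), as the 250 bases before the start with the E-box in capitals. The Sema3c window is chr5:17574566-17574815 and that of Slc17a6 is chr7:51624387-51624636.
Sema3c: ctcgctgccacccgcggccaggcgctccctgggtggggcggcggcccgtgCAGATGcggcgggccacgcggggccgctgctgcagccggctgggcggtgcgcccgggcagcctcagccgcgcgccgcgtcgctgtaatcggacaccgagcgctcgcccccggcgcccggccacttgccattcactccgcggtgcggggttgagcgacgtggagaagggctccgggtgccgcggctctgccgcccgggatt
Slc17a6: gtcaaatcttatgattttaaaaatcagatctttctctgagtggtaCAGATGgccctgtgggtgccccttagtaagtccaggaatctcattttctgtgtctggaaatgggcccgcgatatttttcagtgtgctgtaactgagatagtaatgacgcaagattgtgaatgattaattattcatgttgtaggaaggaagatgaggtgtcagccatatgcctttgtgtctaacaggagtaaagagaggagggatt

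Of 21 listed neurogenic genes, 11 were detected widely enough, and 8 of these were above the other nuclei in all 4 libraries while 1 was below in all 4. Of all 7993 detected genes, 26.4% were above by any amount in all 4 libraries and 30.6% were below. The median log2 ratio was 0.52, against -0.01 over 7972 detected gene symbols. Neurod2, a later relative of Neurod1, had 169, 126, 174 and 182 CPM in the members of Dnmt1 KO 1 and 2 and control 1 and 2, against 81.5, 70.8, 87.2 and 103 CPM. Zbtb18, a repressor needed for radial migration, had 201, 160, 233 and 244 against 120, 98.4, 136 and 153 CPM. Pax6, the progenitor factor, was the gene below in all 4, with 29.9, 14.6, 17.2 and 11.1 against 76.8, 41.1, 55.7 and 50.7 CPM. All 7 detected radial glial genes, and 3 of 4 detected cell cycle genes, were lower in all 4 libraries. The rule removed nuclei rich in Slc1a3, Mki67 or Top2a and those with Gad1 or Gad2. Low radial glial, cell cycle and interneuron levels thus follow in part from the selection.

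Guidance genes were described by the same measure. For 1.5-fold differences in all 4 libraries, the background was 142 genes higher (1.78%) and 577 lower (7.22%) of 7993. In the semaphorin, plexin and neuropilin list, 4 of 18 detected genes were this much higher and 1 was lower, and the 4 include Sema3c and Nrp1, which are also markers of the label. Plxna4, a plexin that signals with neuropilins, had 3964, 3895, 5392 and 3875 CPM in the members of Dnmt1 KO 1 and 2 and control 1 and 2, against 1054, 1669, 1995 and 1979. Sema6a, a transmembrane semaphorin, was the lower one, with 34.1, 105, 36.9 and 42.0 against 154, 276, 180 and 162 CPM. In the list of Slit, Robo, Eph and ephrin genes, 4 of 16 were higher and 2 lower. The Slit receptor Robo2 had 4842, 3657, 6246 and 5532 CPM, against 2116, 1922, 2664 and 2598, whereas its relative Robo1 had 2024, 1169, 1574 and 987 against 2121, 1419, 1773 and 1298 CPM. Slit1 was lower at 10.9, 35.7, 16.2 and 16.1 against 135, 118, 147 and 128 CPM. Of 11 detected netrin, netrin receptor and FLRT genes, 2 were higher and 1 lower. Flrt1 had 115, 60.6, 51.6 and 79.7 CPM against 37.8, 27.2, 24.7 and 33.3, and Unc5c was lower, with 33.6, 170, 103 and 162 against 101, 333, 225 and 296 CPM.

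Of 27 detected migration and cytoskeleton genes, 11 were higher in all 4 libraries and 7 lower, against 26.4% and 30.6% of all detected genes, and only Prex1 exceeded 1.5-fold in all 4. Dcx, a microtubule-associated protein of migrating neurons, had 858, 814, 874 and 794 CPM in the members of Dnmt1 KO 1 and 2 and control 1 and 2, against 500, 541, 599 and 560. Stmn2 and Mapt, genes of axon growth, were lower in all 4, with 136, 226, 146 and 198 against 197, 275, 233 and 262 CPM for Stmn2. Of 24 genes of the glutamatergic synapse, 16 were lower in all 4 libraries, against 30.6% of all detected genes, and 8 were lower by 1.5-fold or more in all 4, against 7.22%. Grin2b, an NMDA receptor subunit of young neurons, had 276, 916, 440 and 658 against 1209, 1497, 1335 and 1574 CPM, whereas the AMPA receptor subunit Gria2 had 2516, 2791, 3112 and 3040 against 1669, 1811, 1803 and 1867 CPM.

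**Figure D2:**
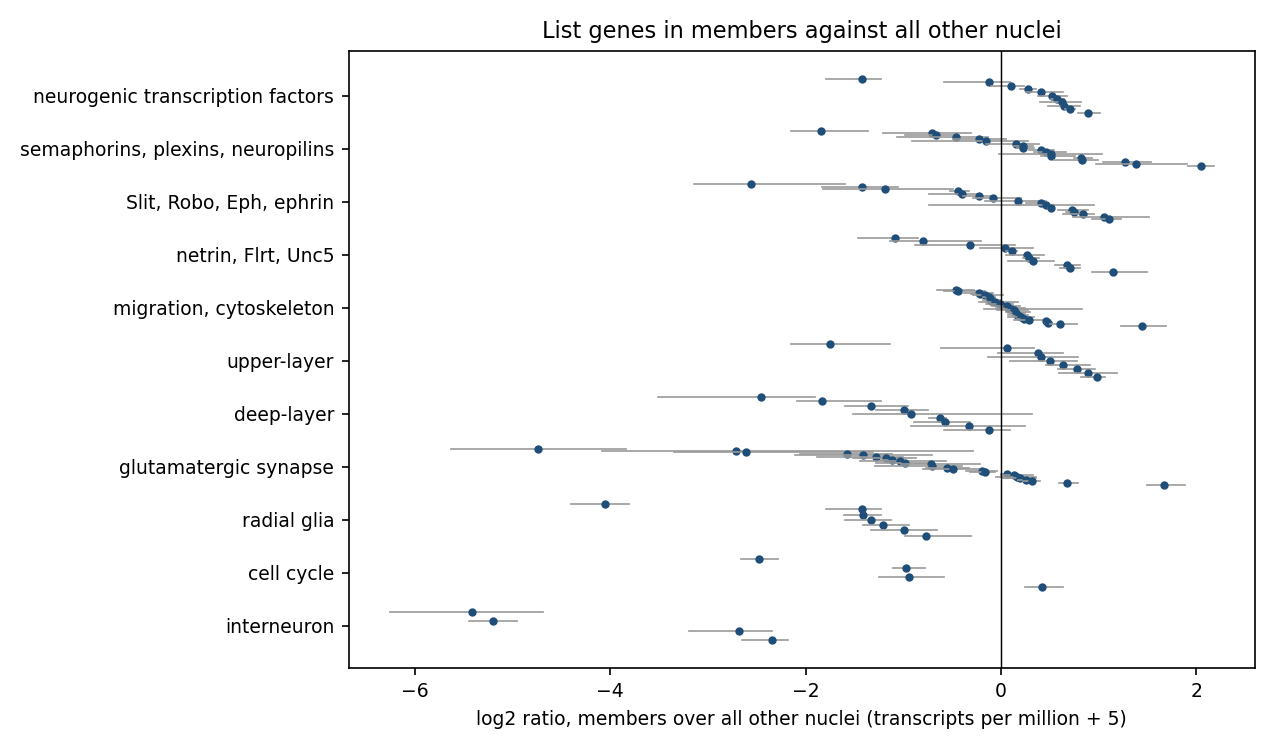
Log2 ratio of members over all other nuclei (CPM plus 5, horizontal axis) for the detected genes of 11 lists, without the genes of the rule; points are means over 4 libraries and lines run from the lowest to the highest library. Sema3c is the highest point, at 2.04, and the interneuron and radial glial genes lie to the left of 0.

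The members were next set beside nuclei that failed 1 clause only. Against the Eomes-positive neighbours, 234 of 7277 genes were at least 1.5-fold higher in all 4 libraries (3.22%) and 264 were lower (3.63%). Shtn1, which encodes shootin 1, a protein of neuronal polarity and axon outgrowth, had 173, 281, 283 and 363 CPM in the members of Dnmt1 KO 1 and 2 and control 1 and 2, against 25.2, 107, 80.1 and 117. Opcml, an adhesion molecule, had 1951, 2518, 1606 and 3163 against 140, 861, 419 and 1227 CPM. Sox6 was lower, with 283, 214, 210 and 159 against 1260, 1101, 1480 and 1191 CPM, and so were Eya4, Lama2, Rhbdl3, Kif26b, Myo10, Dach1 and Megf11. Nrp1 itself was lower in the Eomes-positive neighbours at 506, 775, 792 and 882 CPM, while Slc17a6 was higher there, at 682, 471, 596 and 530 CPM.

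Nuclei that met every clause but carried no Neurod1 transcript, a comparison added after the data had been seen, had Nrp1 levels of 1901, 1826, 1809 and 2084 CPM that overlapped those of the members. Library by library, the members had 1473, 1691, 1740 and 2192 CPM, which was lower except in control 2. The Sema3c levels of the nuclei without Neurod1, in the same order of libraries, were below those of the members (231, 332, 306 and 282 CPM). Of 7036 genes, 49 were at least 1.5-fold higher in the members in all 4 libraries (0.696%) and 28 were lower (0.398%). The higher ones were led by Synpr, Zfpm2, Zfp385b, Rmst, Zbtb20, Mctp1, Gm32647 and Pcdh15. Zbtb20, a transcription factor with a known role in hippocampal pyramidal neurons, had 3946, 3678, 2141 and 2563 CPM in the members against 1276, 1245, 721 and 682 CPM in the nuclei without Neurod1. Among the lower ones, the adhesion molecule Ntm had 700, 1084, 1208 and 1666 against 3063, 2182, 2625 and 4300 CPM. The transcripts of Zfp385b, Synpr, Mctp1 or Prox1, the granule neuron factor, were present in 52.7%, 57.4%, 50.3% and 45.5% of the members, and 659 members had none of them. Prox1 was lower in the members than in all other nuclei of each library, with 15.1, 17.3, 4.18 and 4.93 against 35.7, 31.2, 22.7 and 18.9 CPM, and Mctp1 was lower in 3 of the 4 libraries.

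The cycling neighbours, 83 nuclei in all, carried mitotic genes that were low in the members, such as Kif11 with 0.857 to 2.95 CPM in the members against 52.5 to 244 CPM, with 95 of 7171 genes lower in the members (1.32%) and 22 higher (0.307%). The 134 nuclei with 3 or more Hs3st4 transcripts, a gene of deep-layer corticothalamic neurons, were deeper, with medians of 18383 to 32964 transcripts. Against them, Cux2 was higher in the members at 286, 516, 925 and 864 CPM in Dnmt1 KO 1 and 2 and control 1 and 2, against 98.8, 179, 315 and 356 CPM. There, 148 of 8097 genes were higher (1.83%) and 393 lower (4.85%).

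**Figure D3:**
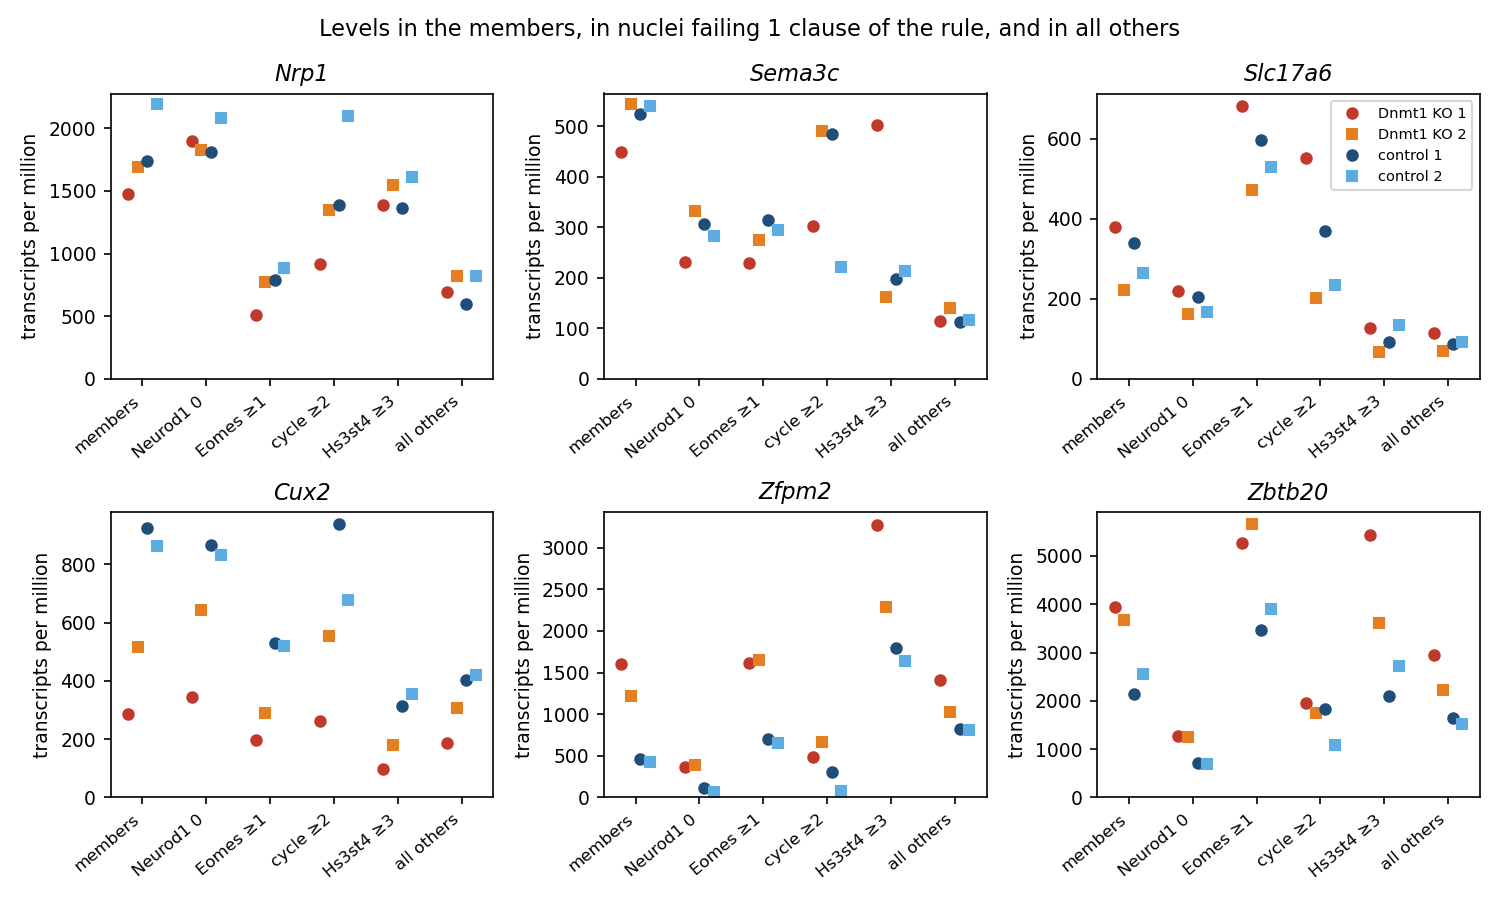
Levels of 6 genes in CPM (vertical axes, from 0) in the members, in nuclei failing only the Neurod1, Eomes, cell cycle or Hs3st4 clause, and in all others; points are libraries. Sema3c is higher in the members than in all others in each library, and Slc17a6 peaks in Eomes-positive nuclei.

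Within the members, nuclei were split by their Neurod1 count after thinning to 5000 transcripts. Nrp1 was lowest with 2 or more Neurod1 transcripts in each library, at 1133, 1122, 1536 and 1800 CPM in Dnmt1 KO 1 and 2 and control 1 and 2, against 1464, 1810, 1745 and 2144 CPM in members left with none. Sema3c was highest with 2 or more in each library, at 512.5, 816, 613 and 583 CPM against 404, 540, 580.0 and 486 CPM. The groups with 2 or more held only 48, 64, 47 and 23 nuclei. In the thinned members, Nrp1 and Sema3c transcripts were found together in 58.8%, 64.3%, 67.1% and 72.3%.

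The study addressed effects of Dnmt1 deletion in SST+ interneurons on other cells of the cortex, and the genotypes were therefore compared within the members. Deep-layer genes made up 66.5% and 55.3% of the deep-layer and upper-layer transcripts in Dnmt1 KO 1 and 2, and 41.8% and 34.2% in control 1 and 2. The lists held 10 genes each, none of them in the rule. The genotypes did not overlap, and the means of 60.9% ± 7.99 (SD, n = 2) and 38.0% ± 5.42 (n = 2) differed by 22.9 percentage points. The exact permutation test gave p = 0.33, two-sided, the smallest that 2 against 2 allows. Within batch 1, the Dnmt1 KO mean was 19.1 points above control 1. The same order was found outside the members, with 77.7% and 70.8% against 69.7% and 64.7% in all other nuclei, with 51.6% and 39.0% against 32.4% and 22.2% in nuclei without Neurod1, and with 69.2% and 64.3% against 57.5% and 52.5% in Eomes-positive neighbours. The difference in this share rested on lower upper-layer levels and on a single deep-layer gene, Zfpm2. The upper-layer list summed to 2482 and 2942 against 4720 and 5293 CPM. The deep-layer list summed to 4938 and 3633 against 3393 and 2746 CPM, of which Zfpm2 held 1602 and 1219 against 465 and 423 CPM. Sox5, also of this list, had 1554 to 2357 CPM in the thinned members split by Neurod1 count. It was found in 93.5% and 91.4% against 97.8% and 96.5% of the thinned members. In the thinned other nuclei it was found in 86.8% and 84.6% against 84.3% and 87.7%. The share of transcripts is therefore not a share of deep-layer nuclei. Without Zfpm2, the share was 57.3% and 45.1% against 38.3% and 30.5%. In members without Zfp385b, Synpr, Mctp1 and Prox1 transcripts it was 57.5% and 39.4% against 34.0% and 28.9%. Both alternatives were chosen after the data had been seen. The second selected on Synpr and Prox1, which were higher in both Dnmt1 KO libraries, and does not serve as a check.

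**Figure D4:**
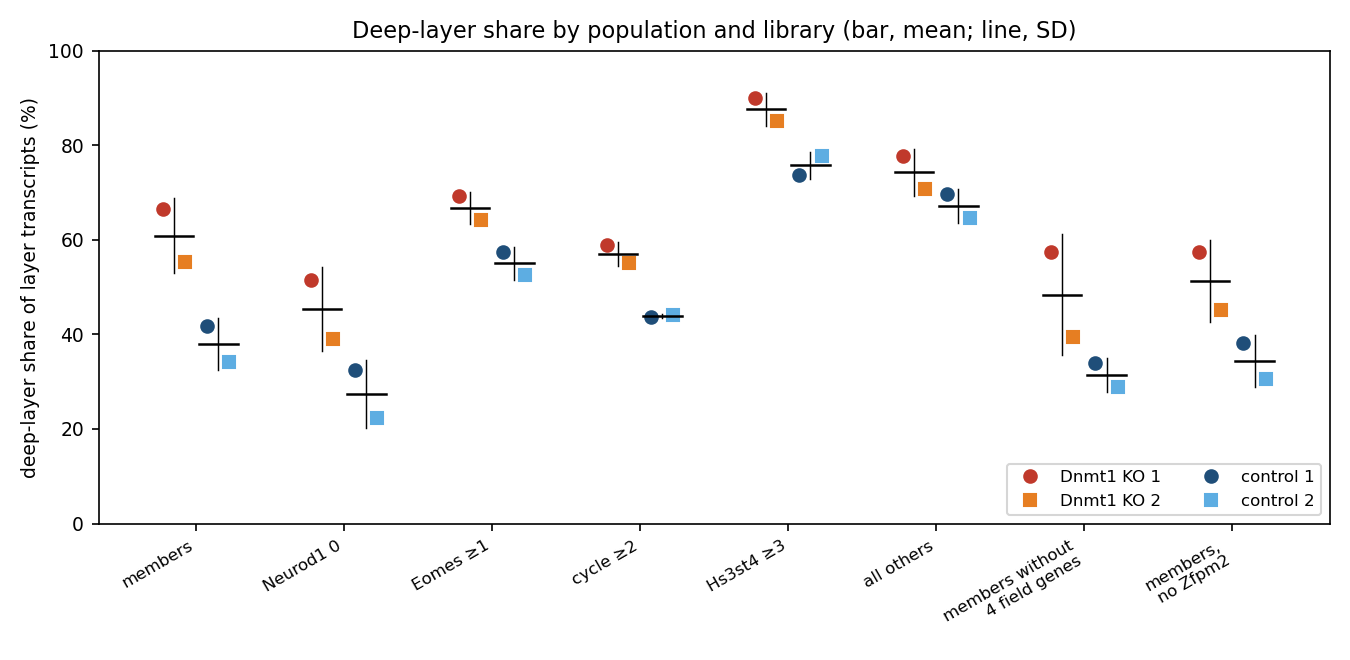
Share of deep-layer transcripts among deep-layer and upper-layer transcripts (vertical axis, percent) by population, and for the members under both alternatives; points are libraries, bars are means of 2 libraries and lines are SD. In the members, the Dnmt1 KO libraries sit at 66.5% and 55.3% and the control libraries at 41.8% and 34.2%.

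Across all genes of the members, edgeR's quasi-likelihood test with Benjamini-Hochberg adjustment called 1 of 11580 genes, higher in Dnmt1 KO (0.00864%), and none lower (0%). Without adjustment, 332 genes had p under 0.05 in the higher direction (2.87%) and 328 in the lower (2.83%), and DESeq2 called 40 (35 higher, 5 lower). The called gene was Gm29478, a long noncoding RNA on chromosome 9 (91285522 to 91549762, plus strand, GRCm39, GENCODE annotation), with 37.8 and 42.5 CPM in Dnmt1 KO against 0.737 and 0.429 CPM in control. It rose by 6.08 on the log2 scale (SE 0.298, adjusted p = 0.0290). Each SE given here was the absolute log2 ratio divided by the square root of the F statistic. This is an approximation that does not give the counting error of a few transcripts. The control values were 3 and 2 transcripts, so that the size of this fold depends on the prior count of the fit and is no bound. The call was lost, with a log2 ratio of about the same size, with batch as a covariate (5.72, adjusted p = 0.923), with a replicate block (6.08, adjusted p = 0.142), without control 1 (6.50, adjusted p = 0.244), without control 2 (5.72, adjusted p = 0.33), with at least 8 Unc5d transcripts (6.40, adjusted p = 0.0723) and when the filter used mapped reads (6.42, adjusted p = 0.0903). With called doublets removed, or thinned to 5000 transcripts, the gene fell below the count filter and was not tested. The called doublets were only 3 and 7 members of Dnmt1 KO 1 and 2, so that leaving out few nuclei took the gene below the filter. How many nuclei carried its transcripts was not examined. In members without Zfp385b, Synpr, Mctp1 and Prox1 transcripts, Gm29478 had 0.587 and 0 CPM against 1.06 and 0.479 CPM. Synpr and Prox1 were themselves higher in both Dnmt1 KO libraries, Synpr at 116 and 148 against 63.1 and 51.9 CPM. Leaving out nuclei with these transcripts can thus remove a genotype difference by selection, and no comparison in this subset serves as a check.

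Of the upper-layer list, 7 of 10 genes were lower in both Dnmt1 KO libraries than in both controls, where 2351 of 11580 genes were (20.3%), and no gene was higher in both, where 1895 genes were (16.4%). The median log2 ratio of the list was -0.97, against 0.00 over all genes. No gene of the list passed the adjusted threshold in edgeR, and of those reported here DESeq2 called Pou3f2 (adjusted p = 0.00766). Cux2 had 286 and 516 against 925 and 864 CPM, Cux1 371 and 579 against 953 and 944, and Pou3f2, a POU factor of upper-layer neurons, 51.6 and 51.2 against 101 and 140. Pou3f1, Pou3f3 and Mdga1 were also lower in both, while Rorb, Lhx2 and Lmo4 overlapped between the genotypes. In the other nuclei, the log2 ratio of Pou3f2 was -0.96 (adjusted p = 0.639).

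In the deep-layer list, 9 of 10 log2 ratios were positive with a median of 0.28, against 0.00 over all genes, and 1 gene alone was above both controls in both Dnmt1 KO libraries, as were 16.4% of all genes. This was Zfpm2 (FOG2), a transcriptional cofactor, with 1602 and 1219 CPM against 465 and 423 (log2 1.68, SE 0.199, adjusted p = 0.407 in edgeR and 1.38e-08 in DESeq2). Tbr1 had 61.8 and 56.0 against 74.2 and 40.1 CPM, Bcl11b 267 and 186 against 257 and 170, and Fezf2 27.2 and 16.3 against 18.2 and 17.6. These layer 5 and layer 6 factors overlapped between the genotypes.

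No gene of the hippocampal list passed the adjusted threshold in edgeR, and DESeq2 called Prox1 (adjusted p = 0.0399). Of its 4 genes, Prox1 (15.1 and 17.3 against 4.18 and 4.93 CPM), Zbtb20 (3946 and 3678 against 2141 and 2563) and Lef1 (153 and 66.3 against 51.1 and 49.9) were above both controls in both Dnmt1 KO libraries, as were 16.4% of all genes, and Zic1 overlapped. Reln, the extracellular protein of Cajal-Retzius cells, had 227 and 145 against 50.4 and 31.9 CPM (adjusted p = 0.410 in edgeR and 2.93e-06 in DESeq2). In members without Zfp385b, Synpr, Mctp1 and Prox1 transcripts, the genotypes overlapped for Reln (190 and 15.3 against 30.7 and 20.1 CPM) and Lef1 (101 and 28.2 against 25.4 and 30.7 CPM). They did not overlap there for Zbtb20 (1556 and 1261 against 881 and 872 CPM). As stated above, this subset does not serve as a check. In the other nuclei, the summed levels of the hippocampal list were 3132 and 2352 CPM against 1732 and 1587. Whether the dissected field differed between libraries was not tested.

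The genes highest in Dnmt1 KO by unadjusted p among those that did not overlap were, after Gm29478, Chrm3 (a muscarinic acetylcholine receptor; 116 and 130 against 35.4 and 33.0 CPM), Thsd7b, Unc13c (a synaptic vesicle priming protein; 14.6 and 22.8 against 1.47 and 1.07 CPM) and Cep112. None of Chrm3, Thsd7b, Unc13c and Cep112 passed the adjusted threshold in edgeR (adjusted p = 0.120, 0.120, 0.308 and 0.308), and DESeq2 called all 4 (adjusted p = 7.49e-10, 1.02e-13, 3.04e-06 and 0.000302). The lowest included Zfp518b, Pou3f2, Lypd6 and Peli2. In members without the 4 transcripts named above, Chrm3 had 35.8 and 28.7 against 26.5 and 4.79 CPM and Thsd7b 15.9 and 11 against 11.1 and 8.14 CPM. Unc13c had 1.17 and 3.82 against 1.59 and 0.479 CPM, Cep112 52.3 and 28.2 against 36.0 and 22.5 CPM, and Cux2 422 and 859 against 1176 and 1170 CPM. In this subset the genotypes overlapped for Thsd7b, Unc13c and Cep112 and not for Chrm3 or Cux2, and Unc13c was low in every library. As stated above, the subset does not serve as a check.

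No gene of the guidance and migration lists was called between the genotypes by edgeR, and DESeq2 called Ephb1 (adjusted p = 0.0135). Of 21 tested semaphorin, plexin and neuropilin genes, 3 were higher and 3 lower without overlap, where 16.4% and 20.3% of all genes were. Nrp1 had a log2 ratio of -0.30 (SE 0.183, adjusted p = 0.866) and Sema3c one of -0.09 (SE 0.153, adjusted p = 0.940). The ephrin Efnb2 had 266 and 263 against 337 and 335 CPM, and its receptor Epha4 1622 and 830 against 839 and 824 CPM. Of 29 migration genes, 10 were lower without overlap and 3 higher, against the same shares of 20.3% and 16.4%. The tubulin Tubb3 was one of the 10, with 47.2 and 49.6 against 62.9 and 81.7 CPM. Nrxn3 had 94.9 and 250 against 99.7 and 71.6 CPM and Nlgn1 2202 and 3439 against 2268 and 2867 CPM. Dnmt1 had 36.6 and 32.7 against 35.9 and 47.2 CPM in these non-targeted nuclei.

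Whether the genotype difference in the members departed from that in all other nuclei was tested by the interaction of genotype and population in edgeR, with library as a block. It was called for 4 of 18947 genes (0.0211%), with 789 at an unadjusted p under 0.05 (4.16%), and the other nuclei alone gave 0 calls among 21517 genes, 1672 of them at an unadjusted p under 0.05. Zfpm2 (chromosome 15, 40518278 to 40970261, plus strand) had log2 ratios of 1.68 in the members and 0.56 in the other nuclei (interaction 1.10, SE 0.111, adjusted p = 0.0487). The ephrin receptor Ephb1 had 649 and 502 against 254 and 311 CPM in the members, and 915 and 841 against 912 and 1013 CPM in the other nuclei (interaction 1.16, SE 0.131, adjusted p = 0.0487). Thsd7b had 105 and 77.0 against 13.8 and 12.2 CPM in the members and 187 and 200 against 119 and 104 CPM elsewhere (interaction 1.99, SE 0.213, adjusted p = 0.0487). In members without Zfp385b, Synpr, Mctp1 and Prox1 transcripts, Zfpm2 had 618 and 150 against 85.2 and 125 CPM. Ephb1 had 214 and 157 against 122 and 205 CPM there. The genotypes overlapped for Ephb1 and not for Zfpm2 in this subset, which does not serve as a check. Arhgap6, which encodes a GTPase-activating protein on the X chromosome, was decided by control 1 alone, which had 176 CPM in the members where the other libraries had 0.494 to 1.5 CPM (interaction -3.65, adjusted p = 0.0487, and -2.36 with adjusted p = 0.541 without control 1). Both libraries numbered 1 had Xist (1302 and 1097 CPM in the members) and both numbered 2 had little or none (3.49 and 0 CPM). Of the libraries with Xist, Dnmt1 KO 1 had 0.494 CPM of Arhgap6 in the members, and the part of sex in this difference was not tested. Fewer nuclei of one kind among the members and less RNA per nucleus cannot be told apart in these sums. The other nuclei were a mixture too, and their make-up differed between libraries. Inhibitory nuclei were 335 of 5312 and 1578 of 11555 in Dnmt1 KO 1 and 2, and 1350 of 6725 and 462 of 4672 in control 1 and 2. The part of this make-up in the interaction was not tested.

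**Figure D5:**
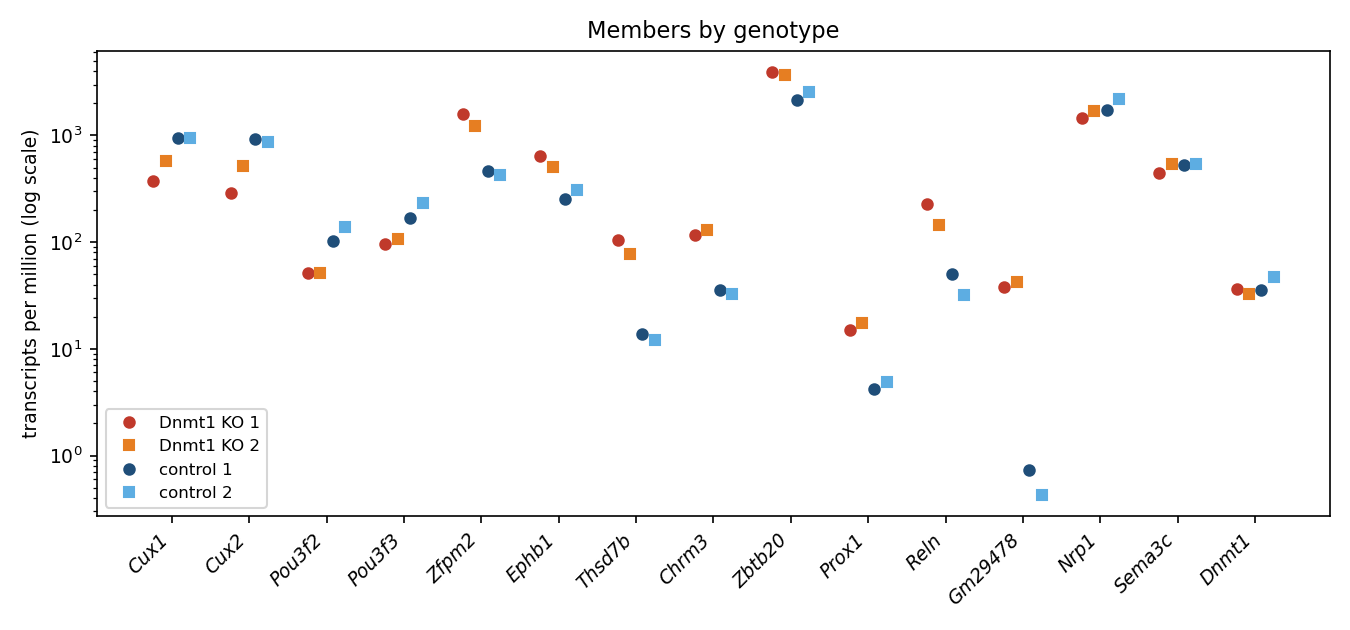
Levels of 15 genes in the members (vertical axis, CPM on a log scale) in each library. The upper-layer genes Cux1, Cux2, Pou3f2 and Pou3f3 lie lower, and Zfpm2, Thsd7b, Chrm3, Prox1, Reln and Gm29478 lie higher, in both Dnmt1 KO libraries, and Sema3c and Dnmt1 overlap.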

How the data were processed

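Nuclei were isolated from frozen medial cortex of E16.5 embryos, and libraries were built with the Evercode split-pool kit. The authors ran Trailmaker on the mouse genome mm39 and deposited, per library, counts of transcripts for 56884 genes in unfiltered barcodes; these counts are raw. The gene annotation and strand setting are not given in the sources used here. The submitters' processing notes name R 4.4.1 and Seurat 5.0.1.9001. Here, barcodes with 1500 to 60000 transcripts were retained, members were found by the stated counts, and transcripts were summed per library. Genotypes were compared on the sums with edgeR 4.0.16 (R 4.3.3; TMM, filterByExpr, quasi-likelihood test, group alone, adjusted p under 0.05), with the 10 genes of the rule removed before testing. DESeq2 1.42.0 was an alternative. The highest and lowest ratios of members over other nuclei were taken from genes seen in at least 10% of nuclei of the higher side. Counts over all genes against the other nuclei used genes seen in at least 10% of nuclei of either side, with the genes of the rule included. Alternatives were other size factors, no filter on low counts, a replicate block, a batch term, other Unc5d thresholds, a filter on mapped reads, thinning and leaving out each library. Shares were compared by exact permutation over libraries. Scrublet in scanpy 1.11.5 called doublets at an assumed rate of 5%, and doublets were kept except in the alternative. Gene positions came from the GENCODE annotation, where 56323 of the gene identifiers matched. Sequences came from RefSeq. Genes were named from lists, from the 25 highest and 15 lowest ratios of members over other nuclei, from the 8 highest and 8 lowest against each neighbour, and from the 5 smallest unadjusted p in each direction between genotypes. The members and lists were chosen with earlier results of these data known. The edgeR tests were also run on simulated counts, and the outcome is not reported here. Per the study, the libraries came from brains of 2 mice per genotype, and the p-values of edgeR and DESeq2 measure the spread between libraries. Within a genotype, this spread also holds the difference in Xist and, between the controls, that of batch. Some genes that the lists and rules name are not reported here.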

Additional observations from a re-analysis of the deposited data

Results flagged for a closer look

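Genes whose genotype difference in the members departed from that in all other nuclei were flagged by the interaction test of edgeR (adjusted p = 0.0487 for each of the 4). Zfpm2 differed by 1.10 on the log2 scale, Ephb1 by 1.16, Thsd7b by 1.99 and Arhgap6 by -3.65. The Dnmt1 KO members of replicates 1 and 2 lay above both controls for Zfpm2, Ephb1 and Thsd7b. For Arhgap6, control 1 alone was high in the members (176 CPM) and in the other nuclei (268 CPM, against 5.92 to 30.1 CPM in the other libraries).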

How the results depend on the processing

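The difference in the share of members, 0.36 points, turned to -0.48 with thinning to 10000 transcripts and to -0.16 in members without Zfp385b, Synpr, Mctp1 and Prox1 transcripts, an alternative chosen after seeing the data, and it ranged from -0.44 (without Dnmt1 KO 1) to 1.16 when a library was left out; the cause was not tested. The deep-layer share kept its direction in every alternative, with differences of 16.8 to 28.6 points. The genotype call of 1 gene became 40 with DESeq2 and 385 with no filter on low counts, and 0 with batch as a covariate, Unc5d of at least 8, a filter on mapped reads, doublets removed, thinning to 5000, or the restricted members. When a library was left out it ran from 0 (without either control) to 43 (without Dnmt1 KO 2), with 32 without Dnmt1 KO 1. With a replicate block it was 0, and the deviations of same-numbered libraries had a correlation of 0.0345. The numbers went with Xist in both genotypes, so that this is also a block by sex; the labels do not say that a number marks shared animals or days. The 4 interaction calls became 274 with no filter and 105 with a replicate block, and 22 (without control 1) to 413 (without Dnmt1 KO 1), with 179 without Dnmt1 KO 2 and 85 without control 2. Zfpm2, Ephb1 and Thsd7b were among the calls each time, and Arhgap6 was lost without control 1. Signs turned for Sema3c (-0.22 to 0.038 with a library left out, positive without Dnmt1 KO 1), Dnmt1 (0.083) and Nrxn3 (-0.11) with thinning to 5000, and Nlgn1 (-0.20 to 0.43, negative without Dnmt1 KO 2). With 2 libraries a genotype, a difference of shares cannot reach an exact p under 0.33.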
